A study of Mus musculus with 2 samples.

Results

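The genes described here are the 8 members of a short transforming growth factor beta (TGF-beta) axis: the ligands *Tgfb1*, *Tgfb2* and *Tgfb3*, the latency protein *Ltbp1*, the receptors *Tgfbr1*, *Tgfbr2* and *Tgfbr3*, and the secreted matrix protein *Tgfbi*, named for its induction by TGF-beta. They were taken by gene symbol from the 32285 genes counted, and all 8 had counts in both libraries. No cut on a measured value picked them, but the list was set with earlier results of these data known. The palatal gingiva of female wild-type C57BL/6J mice aged 8-12 weeks received 3 µl of a ligand at 1 µg/ml, held in place under an oral appliance for 1 h. The tissue was taken at day 4. In the CpG ODN group the ligand was an unmethylated CpG oligodeoxynucleotide, which is recognised by TLR9, and in the LPS group it was *P. gingivalis* lipopolysaccharide, a ligand of TLR2/4. Cells freed with collagenase and trypsin from 4 mice were combined in equal numbers into 1 single-cell RNA-seq library for each ligand, so neither group had a replicate and the effect of a ligand cannot be told apart from that of its library or its mice. No test between ligands was therefore possible, and no untreated library was analysed here.

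TGF-beta is secreted in a latent form in which the mature dimer stays wrapped in its own propeptide, and the latent TGF-beta binding proteins tie that complex to the extracellular matrix until it is released. The active ligand is captured by TGFBR2, which recruits and phosphorylates TGFBR1, and TGFBR1 in turn activates SMAD2 and SMAD3. TGFBR3, or betaglycan, is a co-receptor without kinase activity that presents ligand, TGF-beta 2 above all, to TGFBR2. In gingiva and other barrier tissues the pathway is known for restraining keratinocyte growth, for driving fibroblasts to make matrix, and for limiting inflammation.

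The members lie apart on the GRCm38 genome, on the coordinates of GENCODE M21: *Tgfb1* at chr7:25687002-25705077 on the plus strand, *Tgfb2* at chr1:186622792-186705989 on the minus strand, *Tgfb3* at chr12:86056745-86079041 on the minus strand, and *Ltbp1* at chr17:75005568-75392512 on the plus strand. *Tgfbr1* spans chr4:47353222-47414931 on the plus strand, *Tgfbr2* chr9:116084293-116175360 on the minus strand, *Tgfbr3* chr5:107106570-107289629 on the minus strand, and *Tgfbi* chr13:56609523-56639562 on the plus strand. The promoters of *Tgfb1*, *Tgfb2* and *Ltbp1* are shown because their products act in the same latent complex, while *Tgfb1* was distributed over the cell groups below unlike *Tgfb2* and *Ltbp1*. Each is the 250 bases before the transcription start given by RefSeq (GRCm38.p6), printed on the strand of the gene, and capitals mark matches on either strand to TATAAA (the TATA box), TGACGTCA (the cAMP response element), GGGCGG (the GC box) and CACGTG (an E-box).
Tgfb1, chr7:25686752-25687001, plus strand: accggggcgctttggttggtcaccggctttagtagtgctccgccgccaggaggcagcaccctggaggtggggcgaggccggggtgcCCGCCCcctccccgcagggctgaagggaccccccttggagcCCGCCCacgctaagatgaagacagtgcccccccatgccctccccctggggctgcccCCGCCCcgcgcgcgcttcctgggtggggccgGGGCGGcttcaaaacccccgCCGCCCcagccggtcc
Tgfb2, chr1:186705990-186706239, minus strand: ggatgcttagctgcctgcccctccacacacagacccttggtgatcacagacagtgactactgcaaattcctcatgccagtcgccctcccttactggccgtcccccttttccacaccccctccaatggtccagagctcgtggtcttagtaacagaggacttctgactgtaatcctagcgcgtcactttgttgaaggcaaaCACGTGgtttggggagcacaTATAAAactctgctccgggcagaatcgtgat
Ltbp1, first of 2 listed starts, chr17:75005279-75005528, plus strand: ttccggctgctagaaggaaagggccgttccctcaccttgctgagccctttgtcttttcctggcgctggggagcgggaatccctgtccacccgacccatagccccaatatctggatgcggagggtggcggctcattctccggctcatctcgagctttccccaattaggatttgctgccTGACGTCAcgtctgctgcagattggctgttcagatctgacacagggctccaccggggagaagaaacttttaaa

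The *Tgfb1* window was 75.2% G and C, against a median of 52.4% over the 32851 promoters of the table, and held 5 GC boxes, whose first base stood 164, 123, 67, 36 and 16 bases before the start, and none of the other motifs. The *Tgfb2* window was 53.6% G and C and held an E-box 51 bases and a TATA box 31 bases before the start. The *Ltbp1* window was 56.8% G and C and held a cAMP response element at 73 bases. No 2 of these motifs overlapped in the windows printed. Among all 32851 windows of the same length, a GC box was present in 32.7%, a TATA box in 12.4%, an E-box in 6.02% and a cAMP response element in 1.55%. Of the 8 members, 6 had a promoter in the table and *Tgfb3* and *Tgfbr3* had none. A match is a run of letters, and no readout of binding was available.

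The libraries held 6219 barcodes and 72173148 UMIs (unique molecular identifiers, each counting 1 captured RNA molecule) after CpG ODN and 2016 barcodes and 38656738 UMIs after LPS. A floor of 800 detected genes per cell left 4888 cells with a median of 11077.5 UMIs and 1277 cells with a median of 22680 UMIs. The barcodes left out, 1331 and 739 in number, carried hemoglobin transcripts at 23.5% and 74.8% of their UMIs. The libraries shared 5 barcodes, 1 of them among the kept cells. The kept cells formed 27 clusters, computed with the members and their pathway genes left out, and 25 of these could be named from markers. The epithelial clusters held 76.8% and 76.9% of the cells and were split by keratins into a *Krt5*-rich basal layer (1092 and 244 cells, CpG ODN and LPS in this order here and below), dividing cells (269 and 74), a lower spinous layer with *Krt76* (1306 and 244), an upper layer with *Krt10* (853 and 244), a *Krt4*-high lineage with much or little *Krt5* (153 and 101, 64 and 58), and *Odam*-high cells (17 and 17). The fibroblast-like class held 249 and 53 cells, mural-like 57 and 15, endothelial-like 48 and 24, B-like 283 and 69, germinal-centre B-like 238 and 4, T or NK-like 83 and 26, myeloid-like 34 and 13, gland-like 84 and 66 and Schwann-like 17 and 11. All 8 markers looked for were counted in the fibroblast-like, B-like and mural-like classes, 7 of 8 in the endothelial-like class (not *Lyve1*), 8 of 9 in the T or NK-like class (not *Cd4*) and 9 of 11 in the myeloid-like class (not *Csf3r* or *Itgax*).

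A level below is a share of RNA: a class was summed over its cells and the count of the gene scaled to 1000000 UMIs of the class (CPM). It is followed by its exact Poisson 95% interval. All intervals cover counting error only, not the spread between mice. The 3′ library counts 1 tag per molecule, so levels are compared between cells for 1 gene and not between genes. Classes that should lack these genes give a view of free RNA. *Tgfb2*, *Ltbp1* and *Tgfbi*, each with 870 UMIs or more in the epithelial clusters after CpG ODN, gave 1 UMI each in the 283 B-like cells after CpG ODN (1.48 CPM) and 0 in the 69 after LPS. In the 238 germinal-centre B-like cells after CpG ODN they gave 7, 9 and 17 UMIs (3.52, 4.53 and 8.56 CPM). The keratinocyte gene *Krt76* stood at 184 and 110 CPM in B-like cells, and at 1511 and 57.2 CPM in T or NK-like cells. In T or NK-like cells the CpG ODN level was 26.4 times the LPS level. Without the cell with the most *Krt76* in each library it was 4.55 times, so much of the 1511 CPM lay in 1 cell. That value is therefore not a level of free RNA alone.

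The ligands differed in where they were found. By CPM, in both libraries *Tgfb1* was highest in myeloid-like and B-like cells, and *Tgfb2* led in mural-like and fibroblast-like cells. *Tgfb3* led in mural-like cells, followed by fibroblast-like cells.

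*Tgfb1*, the isoform best known from immune cells, reached 263 CPM (200-339, 59 UMIs) and 254 CPM (159-384, 22 UMIs) among the myeloid-like cells. B-like cells followed with 211 CPM (177-248, 142 UMIs) and 190 CPM (139-254, 45 UMIs), endothelial-like cells with 197 CPM (143-264) and 122 CPM (76.3-184), and T or NK-like cells with 132 CPM (94.2-181) and 179 CPM (116-264). *Odam*-high epithelial cells, described below, lay in the same range. The intervals of each neighbouring pair in this order overlapped in both libraries. Among B-lineage cells of the CpG ODN library the level was 2.21-fold (1.77-2.77) higher in B-like than in germinal-centre B-like cells, which had 95.1 CPM (82.1-110). The LPS library held too few germinal-centre B-like cells (4, with 3 *Tgfb1* UMIs) for the same comparison. Counted per cell the order was the reverse, with B-like over germinal-centre B-like at 0.632 (0.505-0.790). With cells chosen by signature genes in place of clusters, the mean *Tgfb1* level of B cells over both libraries was 92.7 CPM. Fibroblast-like cells had 69.9 CPM (54.9-87.8, 74 UMIs) and 55.2 CPM (36.0-80.9, 26 UMIs), and basal keratinocytes 44.6 CPM (40.7-48.8, 470 UMIs) and 51.5 CPM (45.1-58.5, 236 UMIs). The 17 *Odam*-high cells of each library stood above the other keratinocytes, with 169 CPM (120-230) and 97.0 CPM (73.5-126). *Odam* is a product of the junctional epithelium that seals gum to tooth. A CPM is a share of the RNA of a class, and keratinocytes carried more RNA: counted per cell, *Tgfb1* stood at 0.502 and 0.652 UMIs in B-like cells and 0.430 and 0.967 in basal cells. Epithelial clusters together held 61.9% and 74.6% of all *Tgfb1* UMIs, so the class with the highest CPM was not the main holder of the transcript. The epithelial level was below that of all kept cells, at 15.7 against 23.0 CPM and 18.9 against 23.2 CPM. These clusters thus held a smaller share of *Tgfb1* than of all UMIs.

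*Tgfb2* was highest in mural-like cells, the contractile cells around vessels, at 176 CPM (133-229, 55 UMIs) and 132 CPM (82.6-200, 22 UMIs), and in fibroblast-like cells at 154 CPM (131-180, 163 UMIs) and 142 CPM (110-181, 67 UMIs). These classes did not differ beyond counting error, with fibroblast-like over mural-like at 0.874 (0.640-1.21) and 1.08 (0.658-1.83). Basal keratinocytes had 46.7 CPM (42.7-51.0, 492 UMIs) and 56.7 CPM (50.1-64.1, 260 UMIs). Counted per cell, fibroblast-like over basal cells stood at 1.45 (1.21-1.74) and 1.19 (0.893-1.56), the latter holding 1. Of all *Tgfb2* UMIs, 78.4% and 80.2% lay in the epithelial clusters. This was below their share of all UMIs, with 15.2 and 14.8 CPM against 17.6 and 17.0 CPM in all kept cells. Endothelial-like cells had 58.1 CPM (30.9-99.3) and 116 CPM (71.9-178), but in the LPS library 52.4% of those UMIs came from 1 cell. Leukocytes carried little of it. T or NK-like cells had no UMI in either library, B-like cells 1 and 0, germinal-centre B-like cells 7 (3.52 CPM) and 0, and the 4 UMIs of the myeloid-like class lay in 1 cell. Among the 163 and 67 fibroblast-like UMIs no cell held more than 3.68% and 10.4%.

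*Tgfb3* was the most restricted member. Mural-like cells had 179 CPM (136-233, 56 UMIs) and 216 CPM (151-299, 36 UMIs) and fibroblast-like cells 85.0 CPM (68.4-104, 90 UMIs) and 72.2 CPM (50-101, 34 UMIs). The fibroblast-like level was below the mural-like level in both libraries, at 0.474-fold (0.336-0.674) and 0.335-fold (0.203-0.550). Endothelial-like cells had 17.9 CPM (4.87-45.7, 4 UMIs) and 33.2 CPM (12.2-72.3, 6 UMIs), and fibroblast-like over endothelial-like stood at 4.76 (1.80-17.8) and 2.17 (0.902-6.33), the latter holding 1. Together the fibroblast-like and mural-like classes held 46.9% plus 29.2% of all *Tgfb3* UMIs after CpG ODN and 30.6% plus 32.4% after LPS. Basal keratinocytes had 0.949 CPM (10 UMIs in 1092 cells) and 1.31 CPM (6 UMIs in 244 cells). B-like, T or NK-like, myeloid-like, Schwann-like, *Odam*-high and *Krt4*-high *Krt5*-low cells had no UMI in either library. In the B-like class, 0 of 283 and 0 of 69 cells with a UMI allow a share of cells with a UMI of up to 1.06% and 4.35%, or a level of 4.45 and 12.7 CPM.

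*Ltbp1*, which anchors the latent ligand in the matrix, had the same leading classes as *Tgfb2* and *Tgfb3*. Fibroblast-like cells had 180 CPM (156-208, 191 UMIs) and 200 CPM (161-244, 94 UMIs), and mural-like cells 167 CPM (124-218, 52 UMIs) and 222 CPM (156-305, 37 UMIs), a difference within counting error (ratio 1.08, 0.793-1.5, and 0.90, 0.609-1.36). Basal keratinocytes followed with 48.2 CPM (44.1-52.6, 508 UMIs) and 29.5 CPM (24.7-34.9, 135 UMIs). The epithelial clusters together held 74.7% and 61.1% of all *Ltbp1* UMIs. This was below their share of all UMIs, with 13.6 and 7.93 CPM against 16.5 and 11.9 CPM in all kept cells. Myeloid-like, Schwann-like and *Odam*-high cells had no *Ltbp1* UMI. Lymphocytes of the B-like and T or NK-like classes had 1 UMI each after CpG ODN and 0 after LPS. The *Odam*-high cells thus combined the highest *Tgfb1* level of the epithelium with no UMI of *Ltbp1*, which at 17 cells bounds the level at 12.6 and 5.10 CPM (3 counts). Other latent TGF-beta binding proteins were counted in them, with *Ltbp4* at 75.9 and 22.1 CPM and *Ltbp3* at 37.9 and 20.4 CPM.

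Of the receptors, *Tgfbr1*, the signalling kinase, was spread widely. Outside the Schwann-like cells, with 1 and 0 UMIs, it ran from 6.83 CPM in the upper layer of the LPS library to 80.2 CPM (47.5-127, 18 UMIs) in the myeloid-like class of CpG ODN, and each class overlapped its neighbour in the order of levels in both libraries. Fibroblast-like cells had 43.5 CPM (31.8-58.0) and 46.7 CPM (29.3-70.7), a mean that came to 29.6 CPM with fibroblasts chosen by signature genes, and basal cells 21.9 CPM (19.2-24.9) and 25.1 CPM (20.7-30.1).

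*Tgfbr2*, the ligand-binding kinase, was highest in endothelial-like cells, at 232 CPM (173-305, 52 UMIs) and 266 CPM (196-352, 48 UMIs), and in fibroblast-like cells, at 189 CPM (164-217, 200 UMIs) and 195 CPM (157-239, 92 UMIs). Fibroblast-like cells exceeded mural-like cells 2.18-fold (1.46-3.40) and 1.81-fold (1.08-3.19), the opposite order to *Tgfb3*. Per cell these ratios were 1.70 (1.13-2.64) and 1.45 (0.866-2.55). T or NK-like cells had 170 CPM (126-224) and 107 CPM (60.1-177), and B-like cells 129 CPM (103-159, 87 UMIs) and 131 CPM (88.9-186, 31 UMIs). Germinal-centre B-like cells had 40.8 CPM (32.4-50.7, 81 UMIs) after CpG ODN, so B-like cells stood 3.16-fold (2.31-4.34) above them in CPM, and at 0.903 (0.660-1.24) per cell. For *Tgfbr1* the levels overlapped, with 56.3 CPM (39.9-77.3) in B-like and 51.8 CPM (42.3-62.9) in germinal-centre B-like cells. Basal keratinocytes had 52.2 CPM (47.9-56.8, 550 UMIs) and 50.4 CPM (44.1-57.3, 231 UMIs) of *Tgfbr2*.

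*Tgfbr3*, betaglycan, had its highest well-counted levels in stroma and endothelium, though the many keratinocytes held 75.7% and 72.1% of its UMIs. This was below their share of all UMIs, with 10.2 and 10.3 CPM against 12.3 and 13.1 CPM in all kept cells. Fibroblast-like cells had 127 CPM (106-150, 134 UMIs) and 174 CPM (138-216, 82 UMIs), endothelial-like cells 107 CPM (68.7-160) and 105 CPM (63.3-164), and mural-like cells 51.3 CPM (29.3-83.2) and 53.9 CPM (24.7-102). Basal keratinocytes had 22.9 CPM (20.1-26.0) and 22.5 CPM (18.3-27.3). B-like cells had no UMI in 283 and 69 cells, in contrast to their *Tgfbr2*, and *Odam*-high cells had none either. T or NK-like cells had 34.0 CPM (16.3-62.4, 10 UMIs) and 50.1 CPM (20.1-103, 7 UMIs).

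In fibroblast-like cells, a UMI of *Tgfbr2* was found in 53.0% of cells after CpG ODN and 71.7% after LPS, of *Ltbp1* in 40.2% and 56.6%, of *Tgfb2* in 33.3% and 60.4%, of *Tgfbr3* in 34.9% and 69.8%, of *Tgfb3* in 26.9% and 41.5%, and of *Tgfb1* in 24.5% and 32.1%. The LPS cells were the deeper ones, with a median of 8707 UMIs against 3952. When each cell was thinned to 1500 UMIs the shares came to 26.5% and 25.5% for *Tgfbr2*, 22.0% and 22.3% for *Ltbp1*, 18.1% and 17.8% for *Tgfb2*, 17.9% and 22.3% for *Tgfbr3*, 12.8% and 11.1% for *Tgfb3*, and 9.35% and 7.55% for *Tgfb1*. B-like cells, with medians of 2149 and 3157 UMIs, had a UMI of *Tgfb2* in 0.353% and 0% and of *Tgfb3* or *Tgfbr3* in 0%. The gap between libraries seen in the unthinned shares was not seen at equal depth, except for *Tgfbr3*.

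*Tgfbi* encodes a matrix protein that binds collagens and integrins. Its highest level was in myeloid-like cells, at 628 CPM (529-741, 141 UMIs) and 623 CPM (468-813, 54 UMIs). The transcript was found in 29 of the 34 and 11 of the 13 cells, at a median of 3.0 UMIs a cell in both libraries and at most 16 and 12. After CpG ODN these cells also carried 2232 CPM of the keratinocyte gene *Krt76*, against 104 CPM after LPS. The part of epithelial RNA in these *Tgfbi* values was not tested. Basal keratinocytes had 279 CPM (269-290, 2942 UMIs) and 341 CPM (324-358, 1563 UMIs), and a UMI was present in 87.8% and 96.3% of basal cells. Fibroblast-like cells had 216 CPM (189-246, 229 UMIs) and 208 CPM (169-253, 98 UMIs), of which 26.5% in the LPS library came from 1 cell. Mural-like cells, which shared the *Tgfb2*, *Tgfb3* and *Ltbp1* levels of fibroblast-like cells or exceeded them, had 2 UMIs of *Tgfbi* in 57 cells (6.41 CPM) and 0 in 15. B-like cells had 1 and 0 UMIs. Because keratinocytes were many, the epithelial clusters held 93.2% and 94.5% of all *Tgfbi* UMIs. This was near their share of all UMIs, with 114 and 112 CPM against 111 and 108 CPM in all kept cells.

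**Figure D1:**
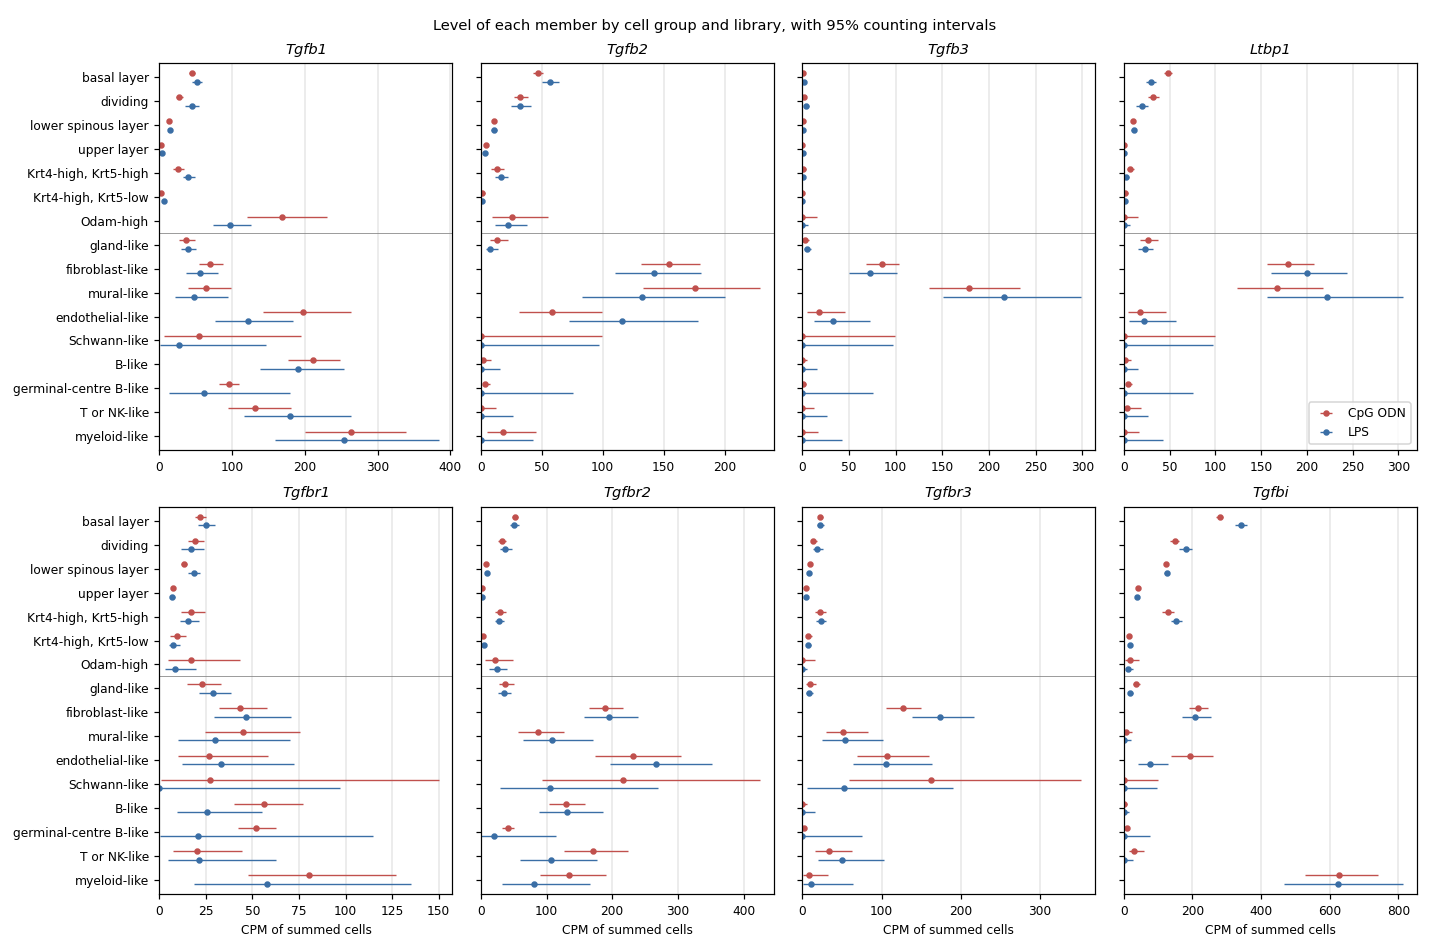
Level of each of the 8 genes (CPM of summed cells, x axis, 1 linear scale per panel starting at 0) in the 16 named cell groups (y axis) of the CpG ODN library (red) and the LPS library (blue); points are the levels and lines their exact Poisson 95% intervals. *Tgfb3* stands above 50 CPM in fibroblast-like and mural-like cells, while *Tgfbi* peaks in myeloid-like cells at 628 and 623 CPM and is near 0 in mural-like and B-like cells.

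Within the stratified epithelium the members were highest in the basal layer and lower in each layer above it. The difference in CPM was wide for *Ltbp1*, at 77.2-fold (47.1-136) from basal to upper after CpG ODN and 50.7-fold (25.0-120) after LPS, where the upper layer held 16 and 8 UMIs. The ratio of the mean levels of both libraries was 64.4 for *Ltbp1* and 34.8 for *Tgfbr2*. It became 26.7 and 30.7 at a Leiden resolution of 0.5, and 24.6 and 27.1 at 2. With the members and pathway genes in the clustering it was 26.7 and 30.3, so the order of these genes held in the main clustering and not in those. *Tgfbr2* was 31.9-fold (23.3-44.7) and 38.6-fold (23.9-66.2) higher in the basal than in the upper layer, *Tgfb1* 16.3-fold (12.7-21.3) and 18.2-fold (12.9-26.2), and *Tgfb2* 11.4-fold (9.22-14.2) and 15.9-fold (11.7-22.1). The gradient was shallower for *Tgfbi*, at 6.78-fold (6.31-7.28) and 8.88-fold (8.04-9.81), for *Tgfbr3*, at 4.81-fold (3.85-6.02) and 4.62-fold (3.36-6.38), and for *Tgfbr1*, at 3.02-fold (2.48-3.68) and 3.68-fold (2.77-4.88). *Tgfb3* had too few epithelial UMIs to place it, with 10 and 6 in the basal and 3 and 4 in the upper layer. The layers were drawn from keratin levels and clusters to which the members did not contribute.

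Upper cells also carried more RNA, with medians of 28224 and 50756 UMIs against 9402 and 17931 in the basal layer, so the difference in the number of molecules per cell was smaller than that in CPM. Per cell, *Ltbp1* was 24.8-fold (15.1-43.7) and 16.9-fold (8.32-39.9) higher in the basal layer, *Tgfbr2* 10.2-fold (7.47-14.4) and 12.8-fold (7.94-22.0), *Tgfb1* 5.24-fold (4.07-6.84) and 6.05-fold (4.30-8.72), and *Tgfb2* 3.66-fold (2.96-4.56) and 5.31-fold (3.90-7.36). *Tgfbi* was 2.18-fold (2.03-2.34) and 2.95-fold (2.68-3.27) higher per basal cell, and *Tgfbr3* 1.54-fold in both libraries (1.24-1.93 and 1.12-2.12). For *Tgfbr1* the number per cell did not differ beyond counting error, at 0.970-fold (0.796-1.18) and 1.22-fold (0.923-1.62). The receptor chains thus separated across the layers. *Tgfbr2* went from 0.504 and 0.947 UMIs per basal cell to 0.0492 and 0.0738 per upper cell, and *Tgfbr1* from 0.212 and 0.471 to 0.218 and 0.385.

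The step between layers was not the same for all members. From the basal to the lower spinous layer *Tgfbr2* was lower by 6.91-fold (5.76-8.33) and 5.76-fold (4.35-7.72) in CPM, and from there to the upper layer by 4.61-fold (3.26-6.66) and 6.69-fold (3.92-12.0). For *Ltbp1* the upper step was the larger, with 4.67-fold (3.96-5.52) and 2.76-fold (2.08-3.70) at the first step and 16.5-fold (9.95-29.5) and 18.3-fold (8.87-44.0) at the next. *Tgfb1* was lower by 3.27-fold (2.81-3.81) and 3.55-fold (2.81-4.51) and then by 5.0-fold (3.83-6.60) and 5.11-fold (3.51-7.59).

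In the *Krt4*-high lineage, cells with much *Krt5* had about the *Tgfbr3* level of the basal layer, at 0.947-fold (0.657-1.33) and 1.03-fold (0.736-1.44), but little *Ltbp1*, at 0.138-fold (0.0710-0.244) and 0.0951-fold (0.0375-0.201) of the basal level. Their *Tgfbi* stood at 0.457-fold (0.398-0.523) and 0.448-fold (0.40-0.502) of the basal level, their *Tgfb2* at 0.274-fold (0.172-0.415) and 0.289-fold (0.203-0.403), and their *Tgfbr2* at 0.553-fold (0.408-0.736) and 0.540-fold (0.406-0.711). Both libraries gave nearly the same values.

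**Figure D2:**
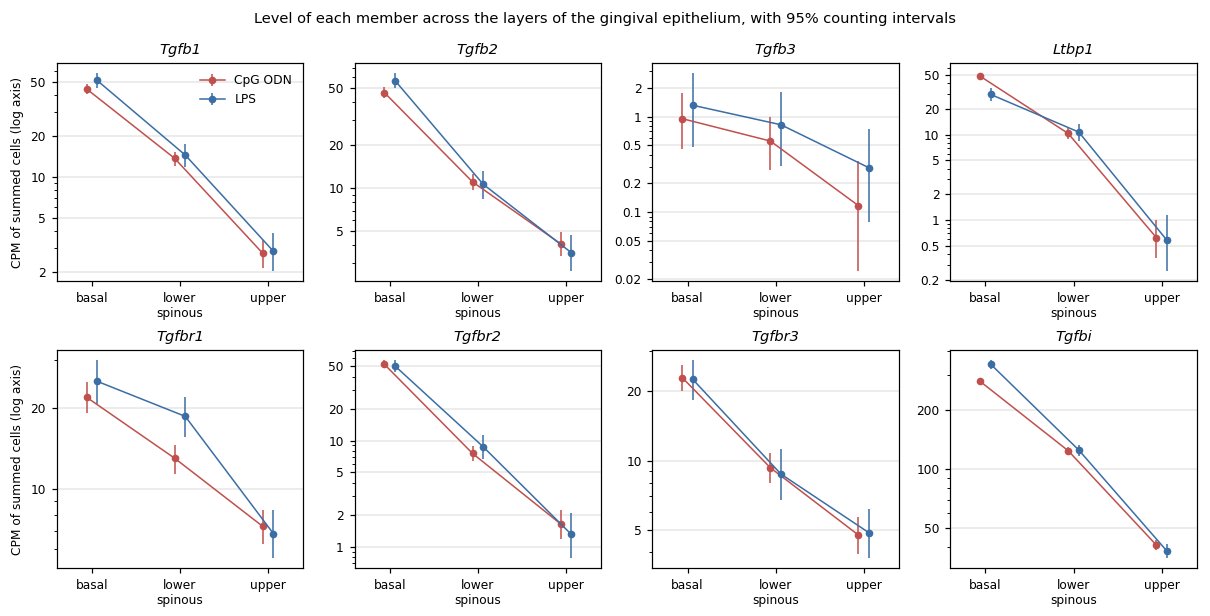
Level of each gene (CPM of summed cells, logarithmic y axis) in the basal, lower spinous and upper layer (x axis) after CpG ODN (red) and LPS (blue), with exact Poisson 95% intervals. The lines drop steeply for *Ltbp1* and *Tgfbr2* and little for *Tgfbr1*, and the *Ltbp1* points of the basal layer stand apart, at 48.2 and 29.5 CPM.

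The ligands were next compared gene by gene. A CpG ODN/LPS ratio of CPM was read only where a class held at least 20 UMIs of the gene over both libraries, which was so for 78 of the 128 pairs of gene and class. Its exact conditional 95% interval held 1 in 64 pairs, lay below 1 in 9 and above 1 in 5. As background, 8.16% of the genes with 20 UMIs in the basal layer had an interval below 1 and 6.65% above 1. In the other classes where it was counted, the share below 1 ran from 6.03% (fibroblast-like) to 10.4% (lower spinous layer). The share above 1 ran from 6.21% (dividing) to 15.4% (gland-like). No share was pooled over all classes, so the 9 and 5 pairs have no single background. For most members and classes no difference was detectable at this depth. At least 2-fold differences were found in 5 of the 78 pairs: *Tgfbi* in endothelial-like cells (2.48), *Tgfbr1* in B-like (2.22) and germinal-centre B-like cells (2.52), and in the other direction *Tgfb1* in *Krt4*-high *Krt5*-low cells (0.299) and *Tgfb2* in endothelial-like cells (0.50). The *Tgfbr1* interval in B-like cells (0.933-6.44) and the *Tgfb2* interval (0.230-1.05) held 1, as did *Tgfbr1* in germinal-centre B-like cells (0.443-101, 103 against 1 UMI). In endothelial-like cells 6.03% of the 3281 genes with 20 UMIs were at least 2-fold higher and 3.90% at least 2-fold lower after CpG ODN, in B-like cells 7.14% and in germinal-centre B-like cells 29.6% were higher, and in *Krt4*-high *Krt5*-low cells 3.69% were lower. In the basal layer and in fibroblast-like cells no member reached 2-fold, where 1.46% and 5.72% of all genes with 20 UMIs were higher and 1.10% and 3.56% lower.

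*Ltbp1* differed between the 2 libraries in basal keratinocytes. The level was 48.2 CPM (508 UMIs) after CpG ODN and 29.5 CPM (135 UMIs) after LPS, a ratio of 1.64 (1.35-1.99). It was 1.70 (1.39-2.08) after the top cell, the one with the most UMIs of the gene, was removed from each library. The ratio lay above 1 in each of the 3 basal clusters, at 2.10 (1.49-3.03), 1.38 (1.04-1.84) and 1.69 (1.10-2.69). The clusters are parts of the same libraries and are not repeats of a ligand. Dividing cells gave the same ratio, 1.64 (1.13-2.42), and the lower spinous layer did not share it as a whole, its 3 clusters standing at 0.840 (0.573-1.26), 1.81 (1.03-3.39) and 0.421 (0.229-0.767). In fibroblast-like cells it was 0.904 (0.703-1.17). As background, an interval above 1 was found for 6.65% of the genes with 20 UMIs in the basal layer and 6.21% in dividing cells.

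*Tgfbi* had the opposite sign in the same cells. Basal keratinocytes had 279 CPM after CpG ODN and 341 CPM after LPS, a ratio of 0.819 (0.770-0.871). The 3 basal clusters, again parts of the same libraries and not repeats, gave 0.814 (0.744-0.891), 0.842 (0.749-0.947) and 0.771 (0.680-0.875). Dividing cells gave 0.822 (0.718-0.941) and *Krt4*-high *Krt5*-high cells 0.836 (0.706-0.987), the last with an interval that held 1 once the top cell of each library was left out (0.854, 0.720-1.01). In the basal layer 8.16%, in dividing cells 6.54% and in *Krt4*-high *Krt5*-high cells 6.42% of the genes with 20 UMIs had an interval below 1. Myeloid-like cells, with the highest level, gave 1.01 (0.732-1.41), and fibroblast-like cells 1.04 (0.817-1.33). Gland-like cells had 35.4 CPM against 18.4 CPM, a ratio of 1.93 (1.17-3.23), in a class where 15.4% of genes had an interval above 1. *Krt76* in the same gland-like cells stood at 204 against 854 CPM, and its part in the *Tgfbi* ratio was not tested. In endothelial-like cells 43 UMIs stood against 14, of which 64.3% were in 1 LPS cell. The ratio of 2.48 (1.33-4.91) became 5.52 (2.16-18.0) without the top cell of each library, in a class where 7.07% of genes had an interval above 1.

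For the ligands, *Tgfb2* in basal cells was at 0.823 (0.707-0.960), and *Tgfb1* was below 1 in dividing cells at 0.613 (0.457-0.824), in *Krt4*-high *Krt5*-high cells at 0.645 (0.444-0.924) and in *Krt4*-high *Krt5*-low cells at 0.299 (0.0743-0.893, 4 against 20 UMIs). *Tgfb1* in *Odam*-high cells went the other way at 1.74 (1.13-2.65, 40 against 57 UMIs from 17 cells each), where 8.66% of genes had an interval above 1. Below 1 were 9.84% of genes in the *Krt4*-high *Krt5*-low cells, which also differed in makeup, with 3491 CPM of *Krt76* after CpG ODN and 63.3 CPM after LPS. In myeloid-like, B-like and fibroblast-like cells the *Tgfb1* interval held 1 (the B-like ratio of 1.11 became 0.718 with at least 1200 genes per cell), and *Tgfb3* held 1 in both classes where it could be read. The LPS library held more *Krt4*-high cells (101 and 58 of 1277 against 153 and 64 of 4888).

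Among the receptors, *Tgfbr2* held 1 in all 14 classes read, with basal cells at 1.04 (0.887-1.21) and fibroblast-like cells at 0.967 (0.752-1.25). *Tgfbr1* was lower after CpG ODN in the lower spinous layer, at 0.697 (0.564-0.864), where 10.4% of genes had an interval below 1, and held 1 in the other 10 classes. The clusters of that layer stood at 0.756 (0.516-1.13), 0.754 (0.547-1.05) and 0.440 (0.274-0.706), and only the last interval left out 1. *Tgfbr3* in fibroblast-like cells was at 0.727 (0.548-0.969), where 6.03% of genes had an interval below 1, and held 1 in the other 9. The LPS cells of that class included 8 in a sub-cluster led by *Tagln* and *Acta2* that held no CpG ODN cell. Those cells had 150 CPM (75.0-269, 11 UMIs) of *Tgfbr3*, against 174 CPM in all LPS fibroblast-like cells. The part of this sub-cluster in the *Tgfbr3* ratio was not tested.

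**Figure D3:**
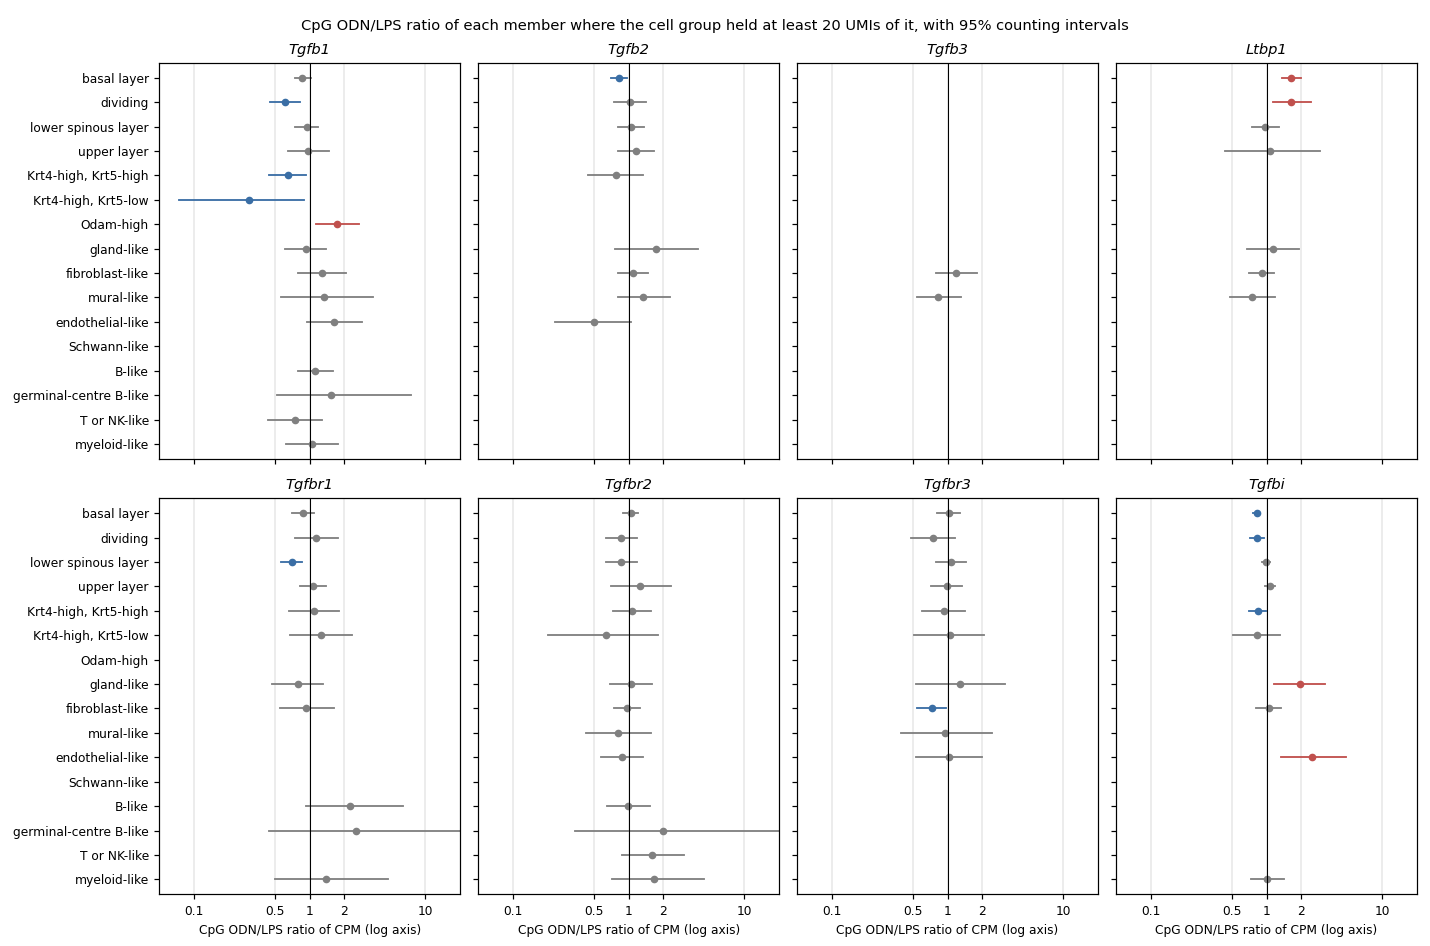
CpG ODN/LPS ratio of CPM (logarithmic x axis, black line at 1) for each gene in the cell groups with at least 20 UMIs of it (y axis); lines are exact 95% intervals, red where they lie above 1, blue below 1 and grey where they hold 1. Of the 78 ratios drawn 64 are grey, *Ltbp1* is red in the basal layer and dividing cells, where *Tgfbi* is blue.

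The wider pathway was read from 42 further genes in 5 roles. In fibroblast-like cells 38 of them had 20 UMIs, 3 were at least 2-fold higher after CpG ODN and 2 at least 2-fold lower, where 5.72% and 3.56% of all 7707 genes were, and their median log2 ratio was 0.03 against 0.02 for all genes. Of the 11 latency and activation genes read, *Ltbp4*, an elastic fibre protein of the *Ltbp1* family, had 1053 and 989 CPM, and *Fbn1*, the fibrillin to which these proteins bind, 428 and 495 CPM. *Ltbp2* was higher after CpG ODN, at 43.5 against 17.0 CPM (ratio 2.56, 1.2-6.28), and *Itgb8*, a subunit of an integrin that releases TGF-beta, had 21 against 3 UMIs (3.12, 0.930-16.3). *Thbs1*, thrombospondin 1, an activator of the latent complex, was lower, at 32.1 against 127 CPM (0.252, 0.161-0.390). None of the 4 receptor partners read, of which *Acvrl1* had 60.5 and 59.4 CPM and *Bambi* 48.2 and 74.3 CPM, and none of the 4 signal transducers, of which *Smad4* had 70.8 and 74.3 CPM and *Smad2* 38.7 and 36.1 CPM, reached 2-fold. Of the 10 inhibitors, *Ldlrad4* was higher with 29 against 3 UMIs (4.30, 1.33-22.1), while *Pmepa1* had 356 and 348 CPM and *Ski* 236 and 221 CPM. Of the 9 targets read, *Ccn2*, connective tissue growth factor, was lower at 139 against 509 CPM (0.273, 0.220-0.336, 147 and 240 UMIs), while *Fn1*, fibronectin, had 2149 and 2184 CPM, *Timp3* 1593 and 1819 CPM, and *Postn*, periostin, 2099 and 1645 CPM (1.28, 1.18-1.39). The makeup of the class differed between the libraries: a sub-cluster led by *Acan* and *Cytl1*, with *Ccn2* among its leading genes, held 5 of 249 and 5 of 53 cells, and a sub-cluster led by *Tagln* and *Acta2* held 0 and 8. Their part in the *Ccn2* and *Thbs1* ratios was not tested.

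**Figure D4:**
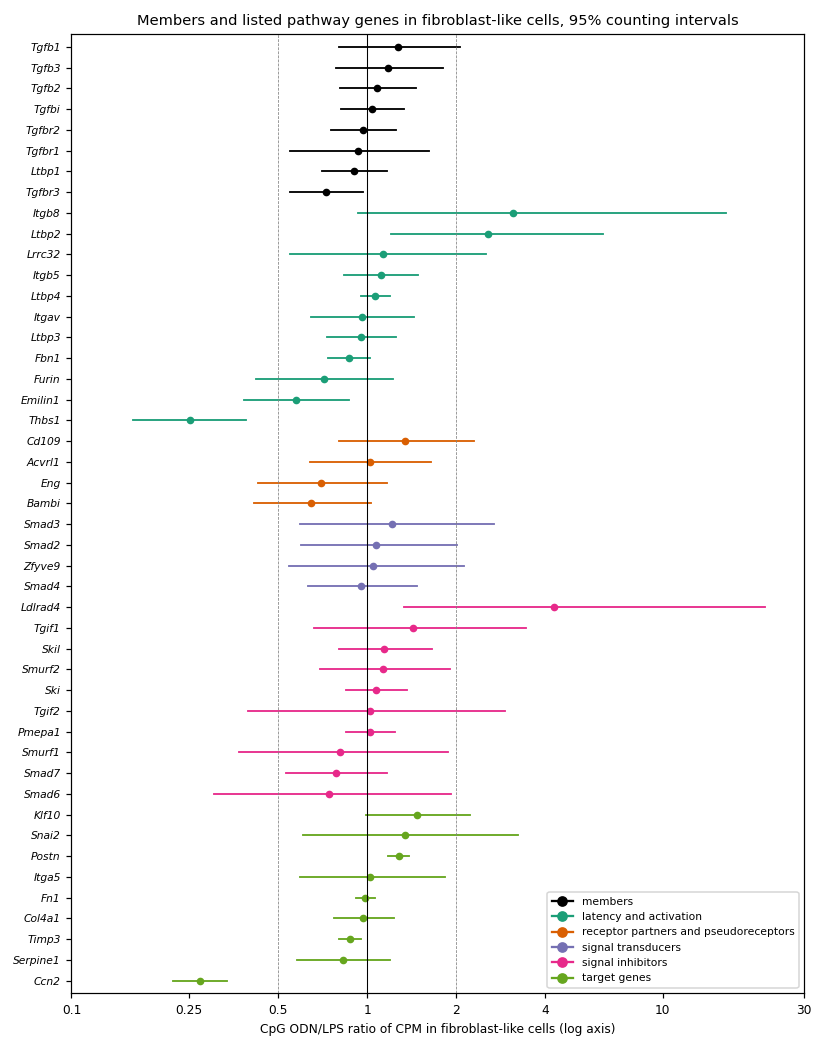
CpG ODN/LPS ratio of CPM in fibroblast-like cells (logarithmic x axis, dashed lines at 0.5 and 2) for the 8 members and the 38 listed pathway genes with at least 20 UMIs (y axis), coloured by role, with exact 95% intervals. The members lie between the dashed lines, *Ldlrad4*, *Itgb8* and *Ltbp2* lie to the right, and *Thbs1* and *Ccn2* to the left.

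In basal keratinocytes 31 of the 42 genes had 20 UMIs and none reached 2-fold in either direction. The median log2 ratio was -0.10 against -0.02 for all 11136 genes. *Cd109*, a co-receptor that restrains TGF-beta signalling in keratinocytes, had 115 and 113 CPM, *Bambi* 39.9 and 34.0 CPM, *Ltbp4* 88.9 and 95.1 CPM, *Itgav* 53.7 and 58.3 CPM, *Ski* 70.5 and 66.8 CPM *Smad4* 48.7 and 46.5 CPM and *Zfyve9* 40.4 and 32.3 CPM. Of the inhibitors, *Pmepa1* was at 0.736 (0.632-0.860) and *Smad7* at 0.838 (0.733-0.961), in a layer where 8.16% of genes had an interval below 1. *Pmepa1* lay on the other side in the lower spinous layer, at 1.22 (1.04-1.42), and in the upper layer, at 1.23 (1.12-1.36), and *Smad7* was at 0.854 (0.758-0.964) and 1.05 (0.917-1.21) there. Of the target genes, *Klf10* was at 0.908 (0.799-1.03), *Timp3* at 0.522 (0.407-0.671) and *Snai2* at 1.39 (1.21-1.60), so the listed targets differed in both directions. In the other layers a few listed targets at low levels were past 2-fold. In dividing cells 2 of 29 listed genes were higher after CpG ODN, *Fn1* at 9.96 against 3.08 CPM and *Postn* at 12.0 against 1.03 CPM, where 1.94% of all genes were. In the lower spinous layer 2 of 32 were higher, *Ccn2* with 21 against 1 UMI and *Postn* with 27 against 2, where 1.49% of all genes were. In the upper layer 4 of 31 were higher, *Fn1*, *Postn*, *Snai2* and *Timp3*, with *Postn* at 59 against 0 UMIs, where 1.97% of all genes were. *Fn1* and *Postn* were fibroblast-like transcripts of 1645 CPM or more, and the part of free RNA or doublets in the keratinocyte values was not tested.

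Fibroblast-like cells were not uniform in these genes. Clustering them again gave 8 sub-clusters, 5 of which had at least 20 cells, led by *Ccl7*, *Cxcl1* and *Has1* (sub-cluster 0, 68 and 11 cells), *S100a9*, *Cilp* and *Grem1* (sub-cluster 1, 63 and 15), *Tnn*, *Tnc* and *Crabp1* (sub-cluster 2, 44 and 3), *Rgs5*, *Lyz2* and hemoglobin genes (sub-cluster 3, 36 and 5) and *Pcsk2*, *Dio3* and *Myoc* (sub-cluster 4, 27 and 4). The sub-clusters are described for the CpG ODN library, since LPS cells were few. *Tgfb2* was highest in the *Tnn* and *Tnc* cells, at 357 CPM (276-455, 66 UMIs), against 103 CPM (70.1-146) in sub-cluster 0, 119 CPM (78.4-173) in sub-cluster 1, 41.0 CPM (11.2-105) in sub-cluster 3 and 169 CPM (103-261) in sub-cluster 4. The same cells had little *Col14a1*, a fibril-associated collagen of gingival fibroblasts, at 48.7 CPM (22.3-92.5) against 266 to 590 CPM in the others. *Tgfbr3* was highest in the chemokine-rich sub-cluster 0, at 210 CPM (161-268), and *Ltbp1* in sub-cluster 1, at 300 CPM (233-380). *Tgfbi* was highest in sub-cluster 3, at 451 CPM (328-605), which had the lowest *Tgfb2*, *Tgfb3* (30.7 CPM, 3 UMIs) and *Ltbp1* (41.0 CPM, 4 UMIs) and whose leading genes included the myeloid gene *Lyz2*, the mural gene *Rgs5* and hemoglobin. Their part in the *Tgfbi* level was not tested. In the LPS library the 3 cells of sub-cluster 2 had 158 CPM (42.9-403) of *Tgfb2*, no higher than the 193 CPM (118-298) of sub-cluster 1, and the 5 cells of sub-cluster 3 had 1237 CPM (880-1691) of *Tgfbi*. With the UMIs of both libraries pooled, the level differed from the highest to the lowest of the 5 sub-clusters by 10.8-fold for *Tgfb2*, 6.14-fold for *Tgfbi*, 5.52-fold for *Ltbp1*, 4.57-fold for *Tgfb3*, 3.83-fold for *Tgfbr1*, 2.34-fold for *Tgfbr3*, 2.14-fold for *Tgfb1* and 1.70-fold for *Tgfbr2*. Sub-cluster 3, with its mixed leading genes, was the highest for *Tgfbi* and the lowest for *Tgfb2*, *Ltbp1* and *Tgfb3*. It held 4 and 0 UMIs of *Tgfb2*, 4 and 3 of *Ltbp1* and 3 and 1 of *Tgfb3*. The widest spreads therefore rest on this sub-cluster. The fibroblast-like cells of each library come from 4 pooled mice, so the spread between mice is not known.

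**Figure D5:**
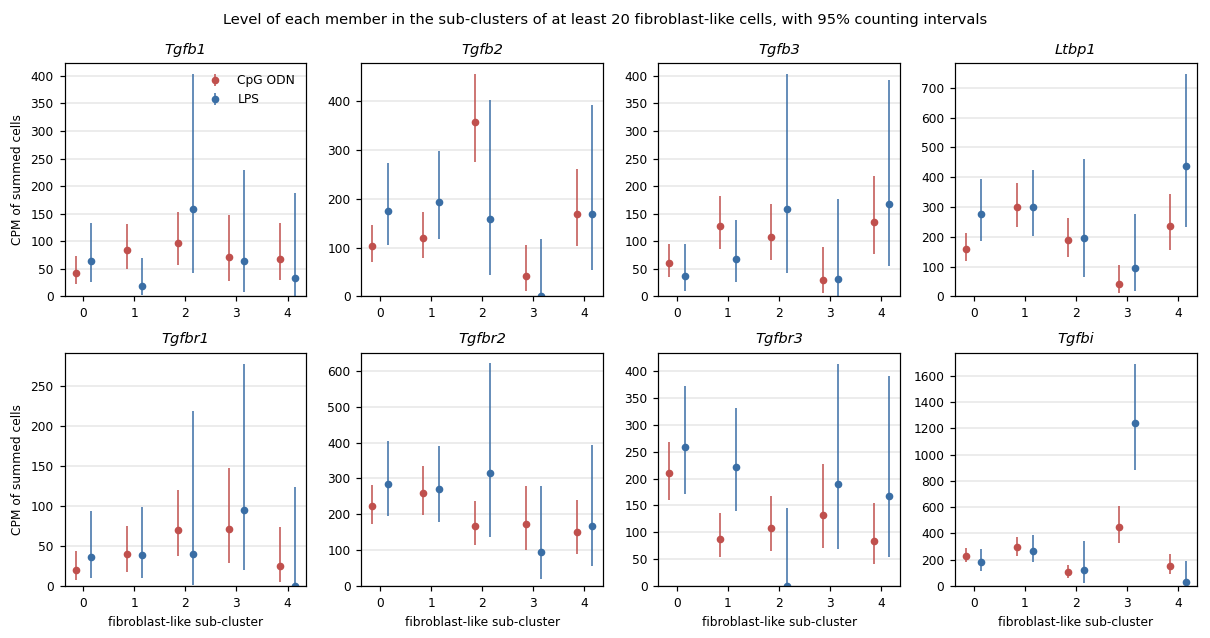
Level of each gene (CPM of summed cells, y axis from 0) in the 5 fibroblast-like sub-clusters with at least 20 cells (x axis) after CpG ODN (red) and LPS (blue), with exact Poisson 95% intervals, wide for LPS because 3 to 15 cells lie behind each point. *Tgfb2* peaks in sub-cluster 2 at 357 CPM after CpG ODN, and *Tgfbi* in sub-cluster 3 in both libraries, on 39 UMIs from 5 cells after LPS.

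Across the classes the members fell into patterns of their own. Over 25 points, each a class of at least 20 cells in 1 library, from 14 classes that share library and depth, Pearson's r of log2(CPM + 10) was 0.90 between *Tgfb1* and *Tgfbr2* and 0.78 between *Tgfb1* and *Tgfbr1*. It was 0.88 between *Tgfb2* and *Ltbp1*, 0.84 between *Tgfb2* and *Tgfb3* and between *Tgfb3* and *Ltbp1*, and 0.77 between *Tgfb2* and *Tgfbr3*. *Tgfb1* had 0.06 with *Ltbp1* and -0.04 with *Tgfbi*. Among 11294 genes compared on the same points, those most like *Tgfb1* were *Tmsb4x* (0.97), *Arpc1b* (0.96) and *Msn* (0.93), and those most like *Tgfbr2* were *Txnip* (0.97), *Tnrc6c* (0.95) and *Esyt1* (0.93). *Tgfb2* was most like *Sparc* (0.97), *Col18a1* (0.97) and *Cavin3* (0.96), *Tgfb3* like *Msx1*, *Cacna2d1* and *Lhfp* (0.99 each), and *Ltbp1* like *Nynrin* (0.96), *Dpysl3* (0.94) and *Gpx8* (0.92). *Tgfbr3* was most like *Calu* (0.92), *Igfbp4* (0.92) and *Rgs3* (0.90), *Tgfbr1* like *Ctsz* (0.91), *Nt5c2* (0.90) and *Meaf6* (0.89), and *Tgfbi* like *Myof* (0.90), *Rnase4* (0.88) and *Ang* (0.88). *Rnase4* and *Ang* are neighbouring genes that share a first exon region, so their counts may not be separable. The coefficients describe these points and carry no test.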

How the data were processed

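The authors deposited, for each of the 2 libraries, a filtered 10x matrix whose entries are UMI counts, with no normalization. The header names Cell Ranger 4.0.0, and the genome build used for counting is not given in the sources used here. The files held no further per-sample columns (0 left unused). Barcodes under 800 detected genes were dropped, the limit in the study's methods. Per-cell counts scaled to 10000 and log-transformed, 2000 variable genes without the members and pathway genes, 30 principal components and 15 neighbours were clustered by Leiden at resolution 1 (leidenalg 0.10.2, igraph 0.11.9, scikit-learn 1.9.0). Clusters were named from marker lists by a rule set after the data were seen, and "-like" marks these rebuilt names. Clusters of 29 and 8 and of 12 and 6 cells with markers of 2 classes stayed unnamed. Doublets were kept in the main analysis. The members and gene lists were chosen with earlier results of these data known.

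UMIs were summed per class and library and given as CPM with exact Poisson intervals (95%), shares with exact Clopper-Pearson intervals, and ratios with the exact conditional binomial interval of 2 counts (scipy 1.17.1, numpy 2.4.6, pandas 2.3.3, Python 3.11.15). With 1 library per ligand, no p-value was computed. Ratios needed 20 UMIs over both libraries, and a count of 0 was bounded by 3 counts. On data simulated for the fibroblast-like comparison (7707 genes, 200 changed), all 200 took the right direction and 96.1% of intervals held the true ratio. That checks the calculation only, as the intervals cover counting error and not the spread between mice or libraries. The text names all 8 members in their classes and, per role of the pathway list, 2 to 4 genes, those with the most UMIs. The genes past 2-fold and the sub-cluster values were chosen after their values were seen. Likeness names the 3 genes with the highest r of log2(CPM + 10) among genes with at least 200 UMIs. Alternatives covered filters, clustering, doublets, scaling and the choice of cells. Coordinates are those of GENCODE M21 (GRCm38), matched by gene identifier, and promoters those of RefSeq.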

Additional observations from a re-analysis of the deposited data

Results flagged for a closer look

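*Tgfb1* had CpG ODN/LPS ratios on both sides of 1: 1.74 in *Odam*-high cells, against 0.613 in dividing cells, 0.645 in *Krt4*-high *Krt5*-high cells and 0.299 in *Krt4*-high *Krt5*-low cells. *Tgfbi* was likewise above 1 in gland-like cells, at 1.93, and in endothelial-like cells, at 2.48, and below 1 in the basal layer, at 0.819, in dividing cells, at 0.822, and in *Krt4*-high *Krt5*-high cells, at 0.836. Each of these counting intervals leaves out 1, and the classes point in opposite directions. Of all genes with 20 UMIs, 8.66% in *Odam*-high, 15.4% in gland-like and 7.07% in endothelial-like cells lay above 1. Below 1 lay 8.16% in the basal layer, 6.54% in dividing, 6.42% in *Krt4*-high *Krt5*-high and 9.84% in *Krt4*-high *Krt5*-low cells. Without the top cells the *Tgfbi* interval in *Krt4*-high *Krt5*-high cells held 1 (0.720-1.01), and the endothelial-like ratio was 5.52. With 1 library per ligand the difference was not tested.

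The barcodes left out for having under 800 detected genes also held members. In the CpG ODN library they carried 197 UMIs of *Tgfb1* and 128 of *Tgfbr2*, with 37 of *Tgfbr1*, 26 of *Tgfbi*, 9 of *Tgfb3*, 8 of *Tgfbr3* and 4 of *Tgfb2*. In the LPS library they carried 7 of *Tgfb1*, 7 of *Tgfbi*, 6 of *Tgfbr1* and 4 of *Tgfbr2*. As a share of their UMIs, *Tgfb1* stood at 122 CPM (106-140) in those of the CpG ODN library and at 4.66 CPM (1.87-9.60) in those of the LPS library, where hemoglobin took 74.8% of UMIs.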

How the results depend on the processing

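No paired analysis was possible because there is a single library per ligand. Of 368 values of the main results under alternatives, 347 kept their value within counting error or their count within 1.5 times, and 21 moved. The cause was not tested. The basal over upper ratio (mean level of both libraries) of *Ltbp1* was 26.7 at Leiden resolution 0.5, 24.6 at resolution 2 and 26.7 with members and pathway genes in the clustering, from 64.4. That of *Tgfbi* was 6.25, 5.91 and 6.16 in these settings and 6.96 as a mean over cells, from 7.79. That of *Tgfb1* was 12.9 as a mean over cells and that of *Tgfb2* 11.3 at resolution 2. With cells chosen by signature genes, *Tgfb1* in B cells was 92.7 CPM and, in fibroblasts, *Tgfb2* was 113, *Tgfbr1* 29.6 and *Tgfbr3* 114 CPM, and 1 pathway gene was 2-fold lower. The *Tgfb1* ratio in B-like cells changed side, from 1.11 to 0.718, with at least 1200 genes per cell; its main interval held 1. Basal *Tgfbi* was 286 CPM at resolution 2. The count of basal pathway genes at least 2-fold higher was 2 at resolution 2 and 3 with at least 1 UMI in each library, and of those lower 1 with at least 200 genes per cell and 2 with at least 1 UMI. With at least 50 UMIs, 1 was higher in fibroblast-like cells. At sub-cluster resolution 1, *Tgfbi* spanned 67.9-fold and *Tgfbr1* 6.59-fold over both libraries pooled. The sub-cluster with the lowest *Tgfbi* there held 1 and 0 UMIs of it. Scaling by the median gene moved ratios by at most 0.11 on the log2 scale (gland-like cells). Depth limits *Tgfb3* in epithelium and the small classes.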
